A study of Mus musculus with 5 samples.

Results

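The regions described here were accessible in double-positive (DP) thymocytes and had no overlapping peak in any of 4 γδ T cell libraries. They were chosen from the lists of accessible sites found by ATAC-seq, an assay that uses a transposase to insert sequencing adapters into open chromatin. All peaks of the 5 libraries were merged where they overlapped by at least 1 bp. An autosomal region was kept when it held a DP peak, held no γδ peak and had a summed DP score of 20 or more. Of 157434 merged regions 6649 met this rule. They made up 18.5% of the 35940 autosomal DP regions with a score of 20 or more, and these same lists chose them. Over all 107263 autosomal DP regions the share without a γδ peak was 57.7%.

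DP thymocytes are the stage of αβ T cell development at which a cell carries both CD4 and CD8. At this stage the Tcrb genes have already been rearranged, the RAG recombinase rearranges Tcra, and the cell is then tested for recognition of self MHC. γδ T cells leave the shared pathway before it and carry a receptor built from γ and δ chains. Accessible sites mark promoters, enhancers and other regulatory DNA, and many of them differ between cell types.

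The DP library came from wild-type C57BL/6 mice. The γδ libraries came from TCRbeta KO.Sox13tg+.Sox13 ECFP KI/+ mice and from TCRbeta KO.Sox13 ECFP KI/+ mice of the same strain. They held CD24+ γδ thymocytes sorted by CFP, a reporter of Sox13 expression, as SOX13hi or SOX13lo fractions of each genotype. Each library was made from 40000 cells, and each group has 1 library. Every difference below is therefore between libraries, with no replicate check and no p-value. All γδ animals lacked TCRbeta and carried the Sox13 ECFP KI allele, and the DP animals were wild type. Cell type and genotype therefore cannot be told apart. The promoter that drives the Sox13 transgene, the ages of the mice and whether animals were pooled were not given in the labels used here.

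The DP list was the longest, with 113877 peaks against 33155 to 67482 in the γδ lists. The read depth behind the lists is unknown. Whether a deeper DP library accounts for some regions without a γδ peak was not tested. The names inside the SOX13lo list read SOX13hi, and the sample label was followed. The labels give transgenic SOX13hi and DP the same index sequence. The peak coordinates are on mm9, and the gene table at hand is of GRCm38, so no region was assigned to a gene, promoter or sequence. The DP identity of the sorted cells was therefore not checked against marker genes. That table places Cd4, Cd8a, Cd8b1 and Tcrb on chromosome 6, Rag1 and Rag2 on chromosome 2, Ptcra on chromosome 17 and Dntt on chromosome 19.

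Every one of the 6649 regions consisted of a single DP peak, so its score is that of the peak. No label or file says what the score measures, and it was used only among peaks of the same list. Scores ran from 20 to 669, with a median of 29 and an upper quartile of 42. A score of 50 or more was held by 1205 regions and a score of 100 or more by 297. These regions were strong among DP-only regions, of which they formed 10.7%, and modest within the DP list, where 33.3% of the autosomal peaks scored 20 or more. The 13566 DP regions with a score of 20 or more that all 4 γδ libraries held had a median score of 134. A region that other libraries share can join several DP peaks, which raises its summed score.

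The share of DP regions without a γδ peak fell with every step in DP score. It was 85.6% at scores of 5 to 9 and 60.6% at 10 to 19. Above the threshold it was 32.8% (95% interval 32.0 to 33.6) at scores of 20 to 39, 15.4% at 40 to 79 and 6.55% at 80 to 159. At 160 or more, 100 of 6524 regions had no γδ peak (1.53%, 1.25 to 1.86). The values on either side of the threshold were close. At a score of 20, 528 of 1241 DP regions were DP-only, with a median width of 86.5 bp and a median distance of 484 bp to the nearest γδ peak. At a score of 19, 663 of 1438 were DP-only, with medians of 89 bp and 427 bp. With thresholds of 10 and 40 the rule would keep 20666 and 1857 regions, 35.0% and 8.70% of the DP regions past the threshold. With absence asked of the transgenic γδ libraries alone it would keep 10654 (29.6%). The rule used these values, so they describe the choice and support nothing.

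**Figure D1:**
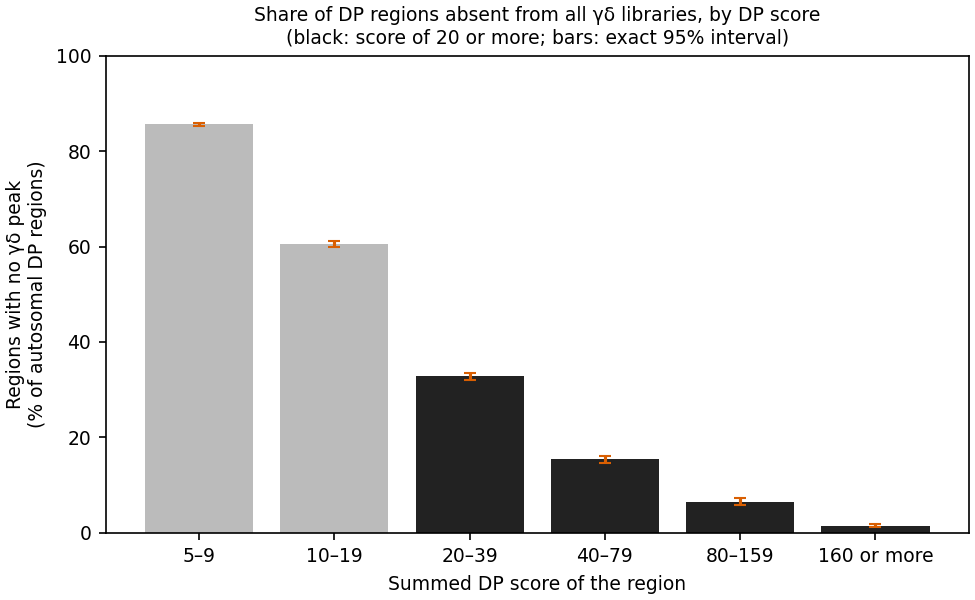
Percentage of autosomal DP regions that no γδ library held (vertical axis) by summed DP score (horizontal axis), with exact 95% intervals for counting error. The share is 85.6% at scores of 5 to 9 and 1.53% at 160 or more, and the black bars hold the 6649 regions described.

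Width was not part of the rule. The regions were 28 to 1052 bp wide, with a median of 89 bp and quartiles of 35 and 196 bp. The median was 191 bp with peaks merged within 150 bp, and 149 bp without DP peaks of 30 bp or less. A width of 30 bp or less, close to the narrowest peak in the list, was held by 1422 regions (21.4%, 20.4 to 22.4). Another 2626 were 31 to 150 bp wide and 2601 (39.1%, 37.9 to 40.3) were wider than 150 bp. The median score was 28 in the narrowest and in the widest class, and the rank correlation of score with width was 0.07 across 6649 regions of 1 library. Score and width were thus almost unrelated among these regions, all of which had passed the score threshold.

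DP-only regions were narrower than DP regions of like score that γδ cells shared. Among regions with a single DP peak and a score of 20 to 39, the median width was 89 bp in the 4792 DP-only regions. It was 154 bp in the 3002 that 1 γδ library held, 151 bp with 2 libraries, 142 bp with 3 and 105 bp with all 4. The share at 30 bp or less was 22.0% in the DP-only regions and 14.5% to 15.9% in the shared ones. A wide peak meets another peak more readily under an overlap rule, and the part of this in the difference was not tested.

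The surroundings of the regions were described with the same γδ peaks as the rule, which bars only overlap. The distances below are therefore not independent of the rule. The nearest peak of any γδ library lay at a median distance of 949 bp. A γδ peak lay within 1 kb of 50.6% of the regions (49.4 to 51.8), against 63.1% of the 55263 weaker DP-only regions. The distances spread over several orders of magnitude. They were 50 bp or less for 1098 regions (16.5%), 1001 to 10000 bp for 2029 (30.5%) and over 50 kb for 204 (3.07%). The share within 1 kb depended on the merging, and was 30.5% with peaks merged within 150 bp of each other. That merging removes every region up to 150 bp from a γδ peak, so it lowers the share by construction.

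The regions that lay closest to a γδ peak were narrower than the rest. The overlap rule drops a wide DP region beside a γδ peak more readily than a narrow one. The same holds for a wide γδ peak beside a DP region, and the part of this in the widths below was not tested. Regions within 50 bp of a γδ peak had a median width of 41 bp, and 39.1% of them were 30 bp wide or less. Those 51 to 200 bp away had a median width of 150 bp, and 19.2% were 30 bp wide or less. Beyond 50 kb the median width was 90.5 bp. The median score was 29 within 50 bp, 26 at 51 to 200 bp and 27 at 201 to 1000 bp. It was 30 at 1001 to 10000 bp, 30 at 10001 to 50000 bp and 33 beyond 50 kb. The γδ peaks within 200 bp of a region had a median width of 29 bp in each of the 4 lists. The whole lists had median widths of 41 bp in transgenic SOX13hi, 30 bp in transgenic SOX13lo, 49 bp in SOX13hi and 58 bp in SOX13lo on the autosomes. Within its own list, each group of such peaks had a median score of 10 to 12, and the autosomal peaks of these lists had medians of 12 to 15.

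Higher-scoring regions lay farther from γδ peaks. A γδ peak was within 1 kb of 53.5% (52.0 to 54.9) of the regions with scores of 20 to 39 and of 43.8% (41.1 to 46.4) at 40 to 79, and the share at 80 to 159 was also 43.8%. It was within 1 kb of 33.0% (23.9 to 43.1) of the 100 regions at 160 or more. The median distance was 728.5 bp in the lowest of these classes and 4097 bp in the highest.

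The 4 γδ libraries came close to the regions to different degrees. A peak within 1 kb was found for 39.6% of the regions in transgenic SOX13hi, 23.5% in transgenic SOX13lo, 32.6% in SOX13hi and 39.5% in SOX13lo. The order was that of the list lengths, except that transgenic SOX13hi and SOX13lo did not differ beyond their intervals. With every γδ list limited to its 33155 highest-scoring peaks, the shares were 26.1%, 23.5%, 24.0% and 26.6%, in the same order. The spread between libraries was then 3.10 percentage points, against 16.0 before.

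A finer view set pairs of γδ libraries side by side. SOX13hi had a peak within 1 kb of 274 regions where SOX13lo had none, and SOX13lo of 737 where SOX13hi had none. With equal list lengths the counts were 280 and 456. Transgenic SOX13hi was near 723 regions that SOX13hi was not near, and SOX13hi near 259 that transgenic SOX13hi was not. They were 403 and 261 in lists of equal length. Transgenic SOX13lo was near 162 regions that SOX13lo was not near, and SOX13lo near 1228 that transgenic SOX13lo was not. Equal lengths brought these to 339 and 545. Transgenic SOX13hi was near 1218 regions that transgenic SOX13lo was not near, and transgenic SOX13lo near 151 that transgenic SOX13hi was not. In lists of equal length the counts were 516 and 344. In each of these pairs the numbers were closer in lists of equal length, and none changed order.

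**Figure D2:**
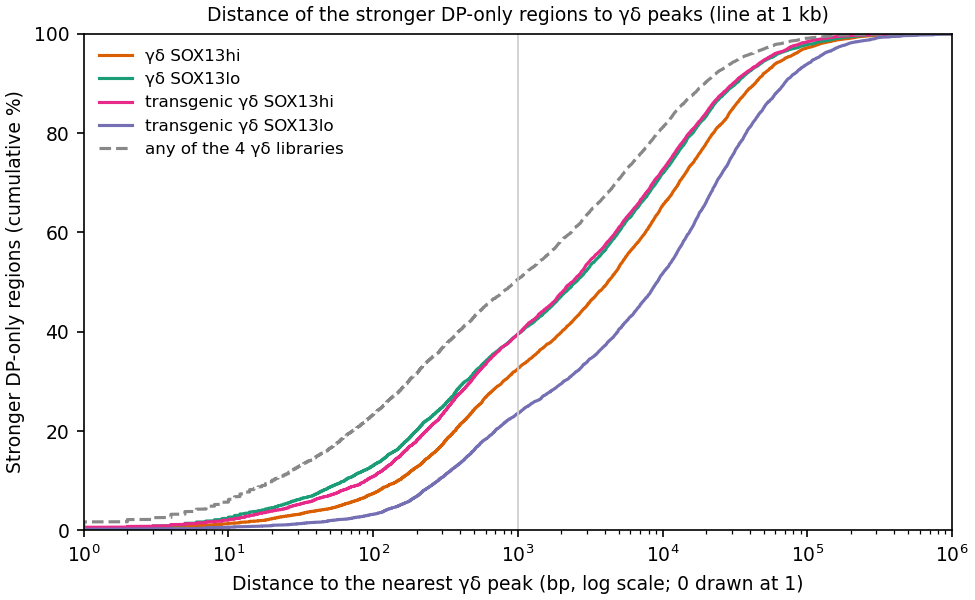
Cumulative percentage of the 6649 regions (vertical axis) by distance to the nearest peak of each γδ library or of any of them (horizontal axis, bp, log scale). The curve for any γδ library crosses 1 kb at 50.6%, and that of transgenic SOX13lo lies lowest with 23.5%.

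The 4 γδ libraries differed in how many DP regions each alone kept out of the DP-only set. Leaving transgenic SOX13hi out of the rule would add 1380 regions, transgenic SOX13lo 264, SOX13hi 690 and SOX13lo 2108, the last raising the number to 8757. These added regions were those with a score of 20 or more that DP and exactly 1 γδ library held. Together they were 4442, or 12.4% of the DP regions with such a score. Their order was that of the list lengths, which were 63932, 33155, 54435 and 67482 peaks in the libraries as just listed. The part of list length in these numbers was not tested. In SOX13lo the score of the shared region was above that of 37.4% of the list's peaks at the median, and in transgenic SOX13lo above 20.4%. In these regions, held by exactly 1 γδ library, the γδ scores were thus mostly in the lower part of that library's list. Regions held by more γδ libraries were not ranked in this way.

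The γδ libraries as a whole were alike in how much of their own list lay around the regions. Within 10 kb of a region lay 19.9% of the autosomal peaks of transgenic SOX13hi, 20.1% of transgenic SOX13lo, 19.3% of SOX13hi and 20.3% of SOX13lo. In lists of equal length the shares ran from 19.1% to 20.1%. Within 10 kb of DP regions that all 4 γδ libraries held lay 65.3%, 83.6%, 69.2% and 64.8% of the full lists, in the same order. Those regions hold γδ peaks by definition.

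The regions lay next to each other more often than their share of the DP list. For 1980 of them (29.8%, 28.7 to 30.9) the nearest DP region with a score of 20 or more was also DP-only, against a background of 18.5%. For DP regions held by at least 1 γδ library this share was 15.2% (14.8 to 15.6). It fell with the number of γδ libraries, being 19.9% with 1 library, 16.9% with 2, 15.0% with 3 and 13.1% (12.6 to 13.7) with all 4. The nearest such neighbour was at a median of 1421 bp from a DP-only region and 1045 bp from a shared one, so DP-only regions stood farther apart from other strong DP regions. These intervals treat regions as independent, which neighbours are not. The groups were not matched for DP score, whose median was 29 in DP-only regions and 134 in those held by all 4 γδ libraries.

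**Figure D3:**
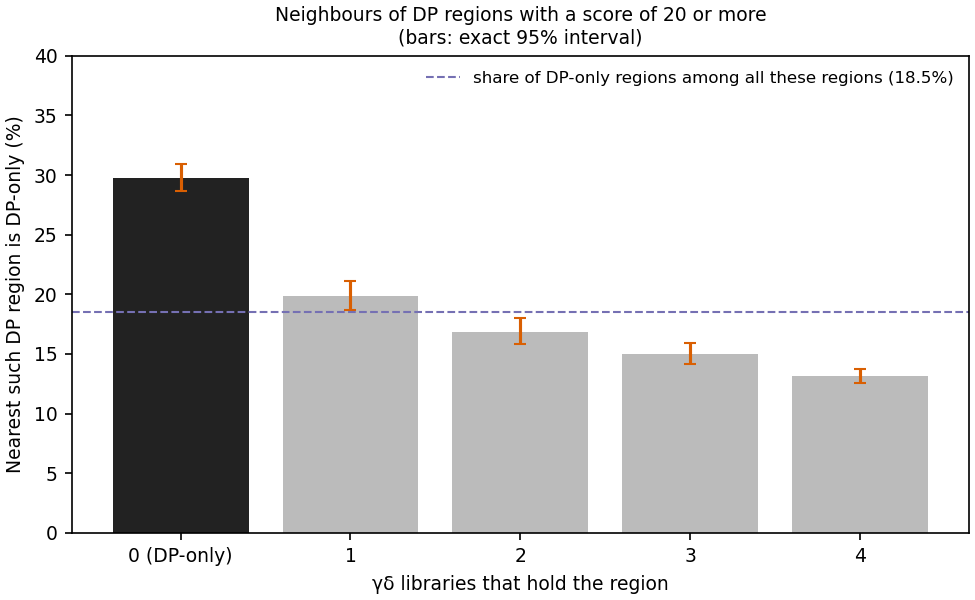
Percentage of DP regions with a score of 20 or more whose nearest such neighbour is DP-only (vertical axis), by the number of γδ libraries that hold the region (horizontal axis), with exact 95% intervals. The DP-only regions stand at 29.8%, above the dashed background of 18.5%, and the regions in all 4 γδ libraries at 13.1%.

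Chained at gaps of up to 20 kb, 1974 of the regions (29.7%, 28.6 to 30.8) fell into 491 clusters of 3 or more. Another 3229 (48.6%) stood alone and 723 pairs were left. There were 114 clusters of 5 or more and 10 of at least 10, the largest with 21. Shared DP regions were not chained in this way. The counts therefore have no background share and do not show that members cluster more than other DP regions. Of the regions wider than 150 bp, 32.9% (31.1 to 34.8) were in clusters of 3 or more, against 27.8% (25.5 to 30.3) of those at 30 bp or less. The share in clusters moved with the settings. It was 11.9% when chained at gaps up to 5 kb, 49.0% at gaps up to 50 kb, 56.4% with a score threshold of 10 and 11.5% with a threshold of 40.

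In the 10 largest clusters DP had 34 to 71 peaks and no γδ library had more than 21. The spans were 22.9 to 72.3 kb, on 8 autosomes, with chromosomes 6 and 15 holding 2 clusters each. In lists of equal length DP had 7 to 20 peaks in each span and the γδ libraries 0 to 14. The DP list was cut to 33155 peaks as well, and its lowest score was then 23. DP had the most peaks in all 10 spans under both settings. The clusters were picked for their DP-only regions, so these numbers describe them.

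**Figure D4:**
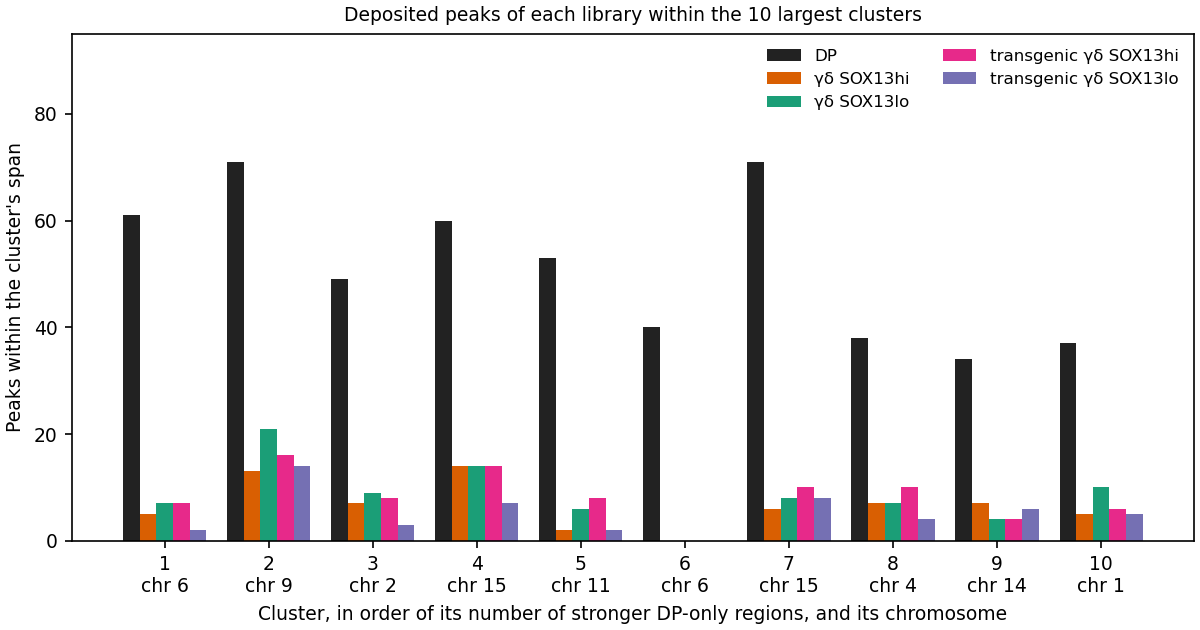
Number of deposited peaks of each library (vertical axis) within the spans of the 10 largest clusters, numbered by size and labelled with their chromosome (horizontal axis). DP has 34 to 71 peaks per cluster, and cluster 6, on chromosome 6, has none from any γδ library.

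The largest cluster was on chromosome 6 at 41484348 to 41507294. It held 21 DP-only regions with scores of 20 to 297 and a median of 31, and their median width was 216 bp. DP had 61 peaks in the span, transgenic SOX13hi 7, transgenic SOX13lo 2, SOX13hi 5 and SOX13lo 7. The γδ peaks of this span were unevenly placed. From 41483291 to 41503124, a stretch of 19.8 kb, none of the 4 γδ libraries had a peak, while DP had 52 regions, 20 of them in the set described here. Each of the 4 γδ libraries had 6 to 13 peaks in the 10 kb before it and 6 to 12 in the 10 kb after it. It was the only one of 5303 stretches between neighbouring γδ peaks with a member to hold as many as 20. Tcrb, the gene set that the TCRbeta knockout disrupts, is also on chromosome 6, and its place on mm9 was not looked up. Peak lists do not separate DNA that is closed from DNA that is missing, so in the γδ animals these cannot be told apart here. Without chromosome 6, 4 shares were computed again and stayed within their intervals. They were the DP-only share, and the shares of members near a γδ peak, next to another member and in clusters of 3 or more.

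The strongest members of that cluster were at 41494829 to 41494919, with a score of 297 over 91 bp, and at 41491925 to 41492071, with 279 over 147 bp. The widest was at 41497183 to 41497805, 623 bp with a score of 74. The nearest γδ peak was 5319 bp or more from each of these.

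A second group on chromosome 6, at 71310898 to 71346254, held 11 regions and no γδ peak at all. DP had 40 peaks there, and each of the 11 DP regions with a score of 20 or more was DP-only. Its median score of 55 was the highest of the 10 clusters. The strongest members lay at 71319541 to 71319728, with a score of 288 over 188 bp, and at 71323249 to 71323973, with 230 over 725 bp. Another, at 71321179 to 71321342, had a score of 172. The stretch without γδ peaks around them was 82.2 kb long, from 71307569 to 71389751, and held 45 weaker DP-only regions besides.

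The cluster on chromosome 9 at 32475732 to 32534523 showed another arrangement, with DP-only regions between shared ones. It held 16 of them, and the 25 DP regions there with a score of 20 or more included 2 that all 4 γδ libraries held. DP had 71 peaks, transgenic SOX13hi 16, transgenic SOX13lo 14, SOX13hi 13 and SOX13lo 21. The median distance to a γδ peak was 1101.5 bp. The highest score was 163, at 32524964 to 32525055, only 3 bp from a γδ peak, and the widest member was 462 bp, at 32507045 to 32507506.

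On chromosome 2 at 101448814 to 101492673 there were 13 DP-only regions among 20 DP regions with a score of 20 or more. None was as narrow as 30 bp, and the median width was 185 bp. DP had 49 peaks, transgenic SOX13hi 8, transgenic SOX13lo 3, SOX13hi 7 and SOX13lo 9. The members fell into 2 main groups, of 4 between 101463339 and 101467659 and of 8 between 101486348 and 101492673, with the strongest, of score 129, apart at 101448814. The highest score within the first of these groups was 70, over 344 bp at 101465246 to 101465589.

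**Figure D5:**
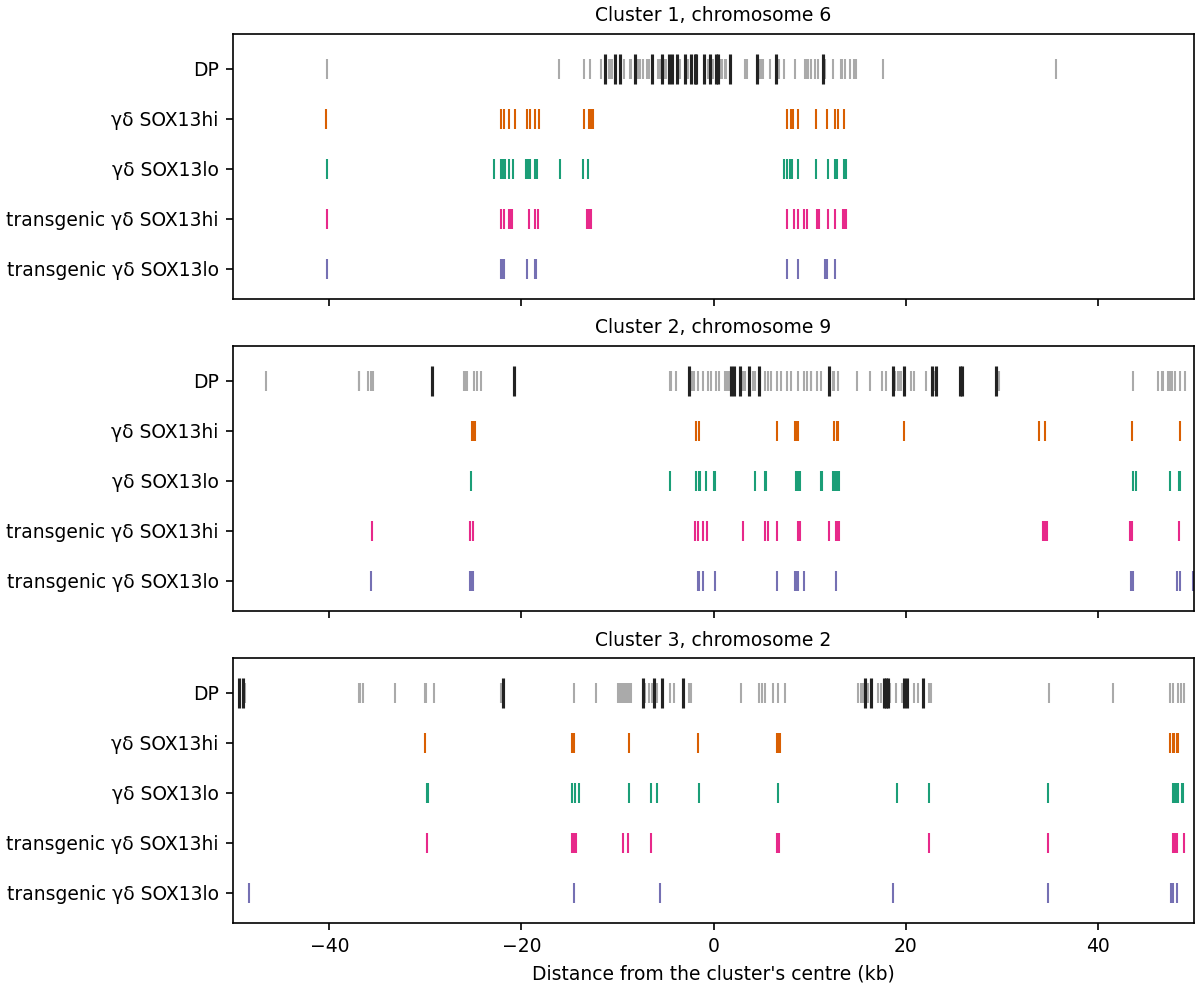
Positions of peaks in each library (rows) within 50 kb of the centre of the 3 largest clusters (horizontal axis, kb). Tall black marks are the stronger DP-only regions, grey marks the other DP peaks and coloured marks γδ peaks, which are missing from the middle of cluster 1 and interspersed in clusters 2 and 3.

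The 6 further clusters were on chromosome 15 at 66610382 to 66663798, with 12 regions, chromosome 11 at 52087266 to 52124640, with 12, and chromosome 15 at 97548404 to 97620729, with 11. Those on chromosome 4 at 102640505 to 102712656, chromosome 14 at 32334717 to 32390235 and chromosome 1 at 135949964 to 135974157 held 10 each. Their highest scores were 47 to 77, below those of the 4 clusters above. The chromosome 11 cluster had the greatest number of DP peaks for each γδ peak among the 6, with 53 in DP, 8 in transgenic SOX13hi, 2 in transgenic SOX13lo, 2 in SOX13hi and 6 in SOX13lo. That on chromosome 15 at 66610382 had 60 in DP and 14, 7, 14 and 14 in the γδ libraries, in the same order, and 5 of its DP regions were held by all of them.

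Of the 5303 stretches between neighbouring γδ peaks that held a member, 4393 held a single one and 36 held 5 or more, with 220 regions in all. Besides the 2 on chromosome 6, the 5 with most members were on chromosomes 3, 15 and 14. The stretch on chromosome 3, at 50432511 to 50633258, was 201 kb long and held 9 regions with scores of up to 239. The one on chromosome 15, at 63118913 to 63442681, was 324 kb long and held 8 with scores of up to 150. The one on chromosome 14, at 78171972 to 78270858, held 7 over 98.9 kb. Its regions had a median width of 28 bp, the narrowest found, against 133.5 to 217.5 bp in the other stretches named.

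In fixed windows of 100 kb, 3647 windows held a member and 187 held 5 or more, of 9034 windows with any DP region scoring 20 or more. The 5 windows with most members overlapped the clusters on chromosomes 6 (19 members from 41400001), 2 (17 from 101400001), 9 (14 from 32500001), 15 (13 from 66600001) and 11 (12 from 52000001). By chromosome the share of DP regions with a score of 20 or more that were DP-only was highest on chromosome 15 (24.2%, 22.1 to 26.4) and lowest on chromosome 7 (14.7%, 13.3 to 16.2). Outside the autosomes, 120 of 854 such regions on X were DP-only, 4 of 86 on Y, and all 7 of the mitochondrial ones, and none of these is counted among the 6649.

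The 20 regions with the highest scores, of 250 to 669, stood above at least 96.8% of all DP peaks. They were of several kinds. In 7 of them a γδ peak lay less than 100 bp away, in 7 it lay over 10 kb away, and 4 were wider than 500 bp.

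The highest score, 669, was on chromosome 14 at 17006096 to 17006189. Peaks of transgenic SOX13hi and SOX13lo lay 56 and 110 bp from it, and those of transgenic SOX13lo and SOX13hi 69529 and 69505 bp. A like contrast held on chromosome 10 at 6829815 to 6830009, with a score of 355. There the nearest peaks were at 4920 bp in transgenic SOX13hi and 4857 bp in SOX13lo, but at 279240 bp in transgenic SOX13lo and 183405 bp in SOX13hi. In each case the nearer libraries, transgenic SOX13hi and SOX13lo, were those with the longest γδ lists. The part of list length in these contrasts was not tested. On chromosome 3 a pair at 50246540 to 50246668 and 50247573 to 50247688, with scores of 378 and 346, had a SOX13lo peak 762 and 50 bp away. The nearest peak of the other 3 γδ libraries was 60902 bp from the first and 61935 bp from the second.

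Others had all 4 γδ libraries at their edge. The region on chromosome 7 at 6237981 to 6238008 was 28 bp wide with a score of 427, and γδ peaks lay 40 to 54 bp from it in every γδ library. On chromosome 15 a region of 28 bp at 72970896 to 72970923, with a score of 281, had γδ peaks 64 to 103 bp away. One of 48 bp on chromosome 3 at 127599346 to 127599393, with a score of 409, had them at 1 to 67 bp. Over all members, 174 (2.62%) had a peak of each γδ library within 200 bp and 4549 (68.4%) had none of any within that distance.

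The broadest of the 20 were far from γδ peaks. On chromosome 1 the region at 186234395 to 186235446 was the widest of all members, 1052 bp with a score of 471, and its nearest γδ peak was at 15087 bp. On chromosome 3 one of 709 bp at 134274547 to 134275255, with a score of 333, had its nearest γδ peak at 371350 bp. On chromosome 9 one of 730 bp at 117062862 to 117063591, with a score of 272, had it at 246086 bp. One of 746 bp on chromosome 7, at 136928325 to 136929070, had a score of 312 and γδ peaks of all 4 libraries at 10312 to 10482 bp.

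In all, 498 members (7.49%) were both wider than 150 bp and more than 10 kb from any γδ peak. They were spread over all 19 autosomes, had a median score of 32, and 23.9% of them were in clusters of 3 or more. Members as a whole were in such clusters in 29.7% of cases.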

How the data were processed

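ATAC-seq peak lists of 5 libraries were used as deposited, 1 per group. The authors deposited for each peak a position and a whole-number score, of unstated meaning, so scores were used to rank, describe and filter peaks within their own list. The submitters' processing notes name mm9 as the build, and positions are printed 1-based. The aligner, caller, cut-off and depth were not given in the sources used here.

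Overlapping peaks (at least 1 bp) were merged, and distances are the bases between peak edges. The regions named are the 20 members with the highest score, the 10 clusters and the 5 stretches between γδ peaks with most members, and the 5 windows of 100 kb with most members. Other regions within these clusters were picked after their values were seen. Members, lists and settings were chosen with earlier results of these data known. Intervals of shares are exact Clopper-Pearson 95% intervals and cover counting error only. That of the median width is an exact binomial 95% interval taken from the ordered widths. Functions were tested on simulated data. Alternatives were score thresholds of 10 and 40, lists of equal length, other merging and overlap rules, subsets of the γδ libraries, chromosome 6 left out and narrow peaks left out. Genes, promoters and motifs, planned for an mm9 annotation, were not analysed here. The software was Python 3.11.15, pandas 2.3.3, numpy 2.4.6, matplotlib 3.10.9 and scipy 1.17.1.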

Additional observations from a re-analysis of the deposited data

How the results depend on the processing

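No paired analysis was possible because each group holds 1 library. Depth is unknown, and the lists carry no value below each list's own lowest score, so absence of a peak is not absence of signal. The number of DP-only regions was 20666 with a score threshold of 10, 1857 with a threshold of 40 and 10654 when absence was asked of the transgenic γδ libraries alone. It stayed within 1.5 times of 6649 under the other 10 alternatives.

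The DP-only share of DP regions past the threshold was 35.0%, 8.70%, 26.7%, 17.2%, 14.3%, 17.0%, 23.8% and 29.6% under 8 settings. These were, in order, a threshold of 10, a threshold of 40, lists of equal length, merging within 150 bp, γδ peak centres within 200 bp, DP peaks of 30 bp or less left out, absence from the non-transgenic γδ libraries alone, and from the transgenic ones alone. In the same order, the share of members with a γδ peak within 1 kb was 58.1%, 43.2%, 40.4%, 30.5%, 37.5%, 48.0%, 45.3% and 47.9%. Merging within 150 bp drops members up to 150 bp from a γδ peak, which lowers this share by construction. The centre rule likewise drops members with a γδ peak centre within 200 bp of their own. The share whose nearest strong DP region was also a member was 41.5%, 23.2% and 35.7% under the first 3 of these settings, and 35.0% and 36.0% under the last 2. It lay above the DP-only share of the same setting in each of the 9 alternatives. In lists of equal length the DP list was cut as well. Its lowest score was then 23, so that setting also raised the score threshold.

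The share in clusters of 3 or more was 56.4% with a threshold of 10, 11.5% with 40 and 31.8% in lists of equal length. It was 27.3% under the centre rule, 24.4% without narrow DP peaks, 33.8% for the non-transgenic libraries and 36.8% for the transgenic ones. Chaining at gaps up to 5 kb gave 11.9% and up to 50 kb gave 49.0%. The median width was 98 bp with a threshold of 10, 107 bp in lists of equal length, 191 bp with merging within 150 bp and 127 bp under the centre rule. It was 149 bp without narrow peaks, 96 bp for the non-transgenic and 107 bp for the transgenic libraries. Merging neighbours and dropping narrow peaks widen the regions by construction, and the cause of the other changes was not tested. With chromosome 6 left out all 6 values stayed within their intervals or, for the number of regions, within 1.5 times.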
